A study of Mus musculus with 69 samples.

Results

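Lipocalin 2 (Lcn2, also called NGAL) is a small secreted protein that binds iron-carrying siderophores. It is made by stressed tubule cells and by neutrophils, and its transcript is a common marker of kidney tubule injury. Mice that reach the same clinical definition of lupus nephritis can differ widely in tubule damage, so kidneys from nephritic mice were sorted on this single transcript and compared with each other. The 22 libraries used came from nephritic kidneys with titles starting RX, out of 69 libraries in the series. Lcn2 was expressed as CPM, its count divided by the library total and multiplied by 1000000. The members were chosen by this value: the 7 libraries with the highest value are called Lcn2-high kidneys, the 7 with the lowest are called Lcn2-low kidneys, and 8 lay between them.

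All animals were female NZB/W F1 mice, a cross that develops immune-complex glomerulonephritis spontaneously. RNA came from perfused whole kidney, with lights-on counted as ZT0 and collections at ZT0, 4, 8, 12, 16 and 20. The nephritic mice were older animals taken a few weeks after fixed proteinuria appeared, while blood urea nitrogen was still low, and they received no remission therapy. Because every nephritic mouse met that definition, the classes describe transcript levels and are no clinical grades. The kidneys used for comparison were 24 from young mice before nephritis with titles starting ZT, 8 from mice in remission after cyclophosphamide, CTLA4Ig and anti-CD40L, collected at ZT0 or ZT12, and 5 nephritic kidneys with titles starting CRS or HIL. Each library was described as 1 mouse, and in whole tissue fewer cells of a type and less RNA per cell cannot be told apart.

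Lcn2 values chose the classes and are therefore a description only. In the Lcn2-high kidneys, Lcn2 was 461 CPM in RX10LU, 343 in RX12RU, 287 in RX7LL, 155 in RX1OLL, 142 in RX8RU, 112 in RX10RU and 103 in RX11LU. In the Lcn2-low kidneys it was 15.7 CPM in RX10RL, 10.9 in RX100, 9.86 in RX7LU, 8.35 in RX8LL, 6.90 in RX12LL, 5.29 in RX11LL and 4.69 in RX90. The nearest libraries left out were RX110 at 97.4 CPM, just under the high class, and RX9RU at 28.9 CPM, above the low class. The upper limit thus cut through a continuous run of values, whereas a gap separated the lower one. The young kidneys ranged from 1.39 to 15.999 CPM with a median of 2.99, but only 2 young kidneys, both ZT16, exceeded 4.83 CPM. All but RX90 of the Lcn2-low kidneys lay above the other 22 young values.

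Collection times and title starts were spread over both classes. The Lcn2-high kidneys held 2 libraries each of ZT0 and ZT4 and 1 each of ZT8, ZT12 and ZT16, and the Lcn2-low kidneys held 2 each of ZT0 and ZT8 and 1 each of ZT12, ZT16 and ZT20. ZT4 was thus present only among the Lcn2-high and ZT20 only among the Lcn2-low kidneys, and a wave with a 24 h period was part of the test. Library totals ran from 30840966 to 36567793 counts in the Lcn2-high and from 30520138 to 35509158 in the Lcn2-low kidneys, and their means did not separate (two-sided exact permutation test, p = 0.597, smallest possible p 0.000583). The Lcn2-high kidneys had more genes with at least 10 counts, 15622 to 16030 against 15262 to 15681 (exact permutation p = 0.00233). A smaller share of their counts fell in the 50 highest genes, 12.8% to 15.3% against 14.7% to 15.9% (exact permutation p = 0.00816). Titles starting RX10 (RX1OLL counted among them) gave 3 Lcn2-high and 2 Lcn2-low kidneys, those starting RX7, RX8, RX11 and RX12 gave 1 of each, and RX9 gave 1 Lcn2-low kidney.

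Several libraries stood apart. RX10LU, the library with the highest Lcn2, carried adrenal transcripts: the 13 adrenal markers summed to 2185 CPM there and to 8.09 to 16.5 CPM in the other 6 Lcn2-high kidneys. Without RX10LU, 5 of the 13 markers could be tested, and 0 of them passed by edgeR, with 0 at an unadjusted p below 0.05. Its kidney genes are therefore given with and without it where a result rested on it. Among the middle kidneys, RX11RL and RX12LU, both labelled ZT4, differed by a mean chi-square of 3.74 per gene, and RX110 and RX8LU, both labelled ZT20, by 9.42, where the median of all 231 pairs was 86.2. The library of RX12RU and its own repeat library differed by 21.5 on this scale. These 4 middle kidneys were not part of the test between classes, but RX12LU and the Lcn2-high kidney RX11LU were the next closest pair, at 18.5. The repeat of RX12RU gave 323 CPM of Lcn2 against 343, while the library labelled as the repeat of the middle kidney RX11RU gave 96.7 against 53.4. That library differed from RX11RU by 71.6 on the chi-square scale and from RX11LU by 26.4, so it was nearer to another kidney than to the one it is labelled for.

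Genes went with the Lcn2 class upward and downward, 35.8% of those tested in all. The scaling used, TMM, centres log2 differences near 0 (median over all tested genes 0.0003), so like numbers each way are no separate result. Among 16069 genes tested with edgeR's quasi-likelihood test, 2906 were higher (18.1%) and 2853 lower (17.8%) in Lcn2-high than in Lcn2-low kidneys at a Benjamini-Hochberg adjusted p of at most 0.05. Most differences were modest, with a median size of 0.55 on the log2 scale among called genes, but 872 genes were higher and 272 were lower by at least 1. By CPM, without TMM scaling, every Lcn2-high library lay above every Lcn2-low library in 968 genes (6.02%). In 223 genes (1.39%) every one lay below. These shares, with the 18.1% and 17.8% called, are the background for every gene list compared between the classes. Since the libraries were sorted on a transcript of the same RNA, each p-value asks only whether a gene goes with the Lcn2 class. Without RX10LU and RX12RU together, a choice made after seeing the data, 1848 genes were higher and 1754 lower. With the title start as a block, likewise added after seeing the data, 1733 genes were higher and 1272 lower, and what the title start stands for is not given. Where a gene list is given with 0 genes called in 1 direction between the classes, edgeR at an unadjusted p below 0.05, DESeq2 and limma also gave 0, apart from 1 lower gene each in the complement and the chemokine list.

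The middle kidneys, which took no part in that test, mostly had intermediate values. Their median lay between the medians of both classes in 88.6% of the 2906 genes called higher, in 70.0% of the 2853 called lower and in 49.0% of the 10310 genes not called. Leaving out RX12LU and RX8LU gave 87.4%, 69.9% and 48.5%.

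Markers of tubule injury and repair were higher almost throughout. Of 30 tested members, 28 were higher in Lcn2-high kidneys and 0 lower, with a median log2 difference of 1.38 against a background of 18.1% of all tested genes called higher. Havcr1 (chr11:46739822-46779578, GRCm38), which encodes the injury receptor KIM-1 of proximal tubule cells, had 173 CPM at the lowest, 268 at the median and 1252 at the highest in the Lcn2-high kidneys, and 21.9, 33.3 and 47.5 CPM in the Lcn2-low kidneys. The classes did not overlap, and the log2 difference was 3.28 ± 0.44 (SE, n = 7 and 7; edgeR adjusted p = 0.000305), a 9.72-fold difference. The 2 kidneys with the highest Lcn2 were far above the rest, at 913 CPM in RX10LU and 1252 CPM in RX12RU, while the other 5 lay at or below 339 CPM. Without RX10LU the log2 difference was 3.19.

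Timp1, an inhibitor of matrix metalloproteinases, rose more steeply. Its lowest, median and highest values were 8.40, 19.6 and 41.4 CPM in the Lcn2-high kidneys and 0.644, 0.907 and 3.02 CPM in the Lcn2-low kidneys. The log2 difference was 4.04 ± 0.39 (SE; edgeR adjusted p = 0.000102), with no overlap between classes. Krt20, a keratin that appears in injured tubules, showed 5.72, 24.0 and 41.1 CPM against 0.290, 0.983 and 2.99 CPM, a log2 difference of 4.24 ± 0.48 (SE; edgeR adjusted p = 0.000156). Its high values were spread unevenly, with RX1OLL at 5.72 and RX10RU at 6.79 CPM standing below the other 5. Spp1, which encodes osteopontin, reached 6953, 9017 and 25417 CPM in the Lcn2-high against 1231, 1596 and 2228 CPM in the Lcn2-low kidneys (log2 difference 2.65 ± 0.29 SE; edgeR adjusted p = 0.000152). The 2 members that did not pass were Itgb6 and Prom1, with log2 differences of 0.18 and 0.09.

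**Figure D1:**
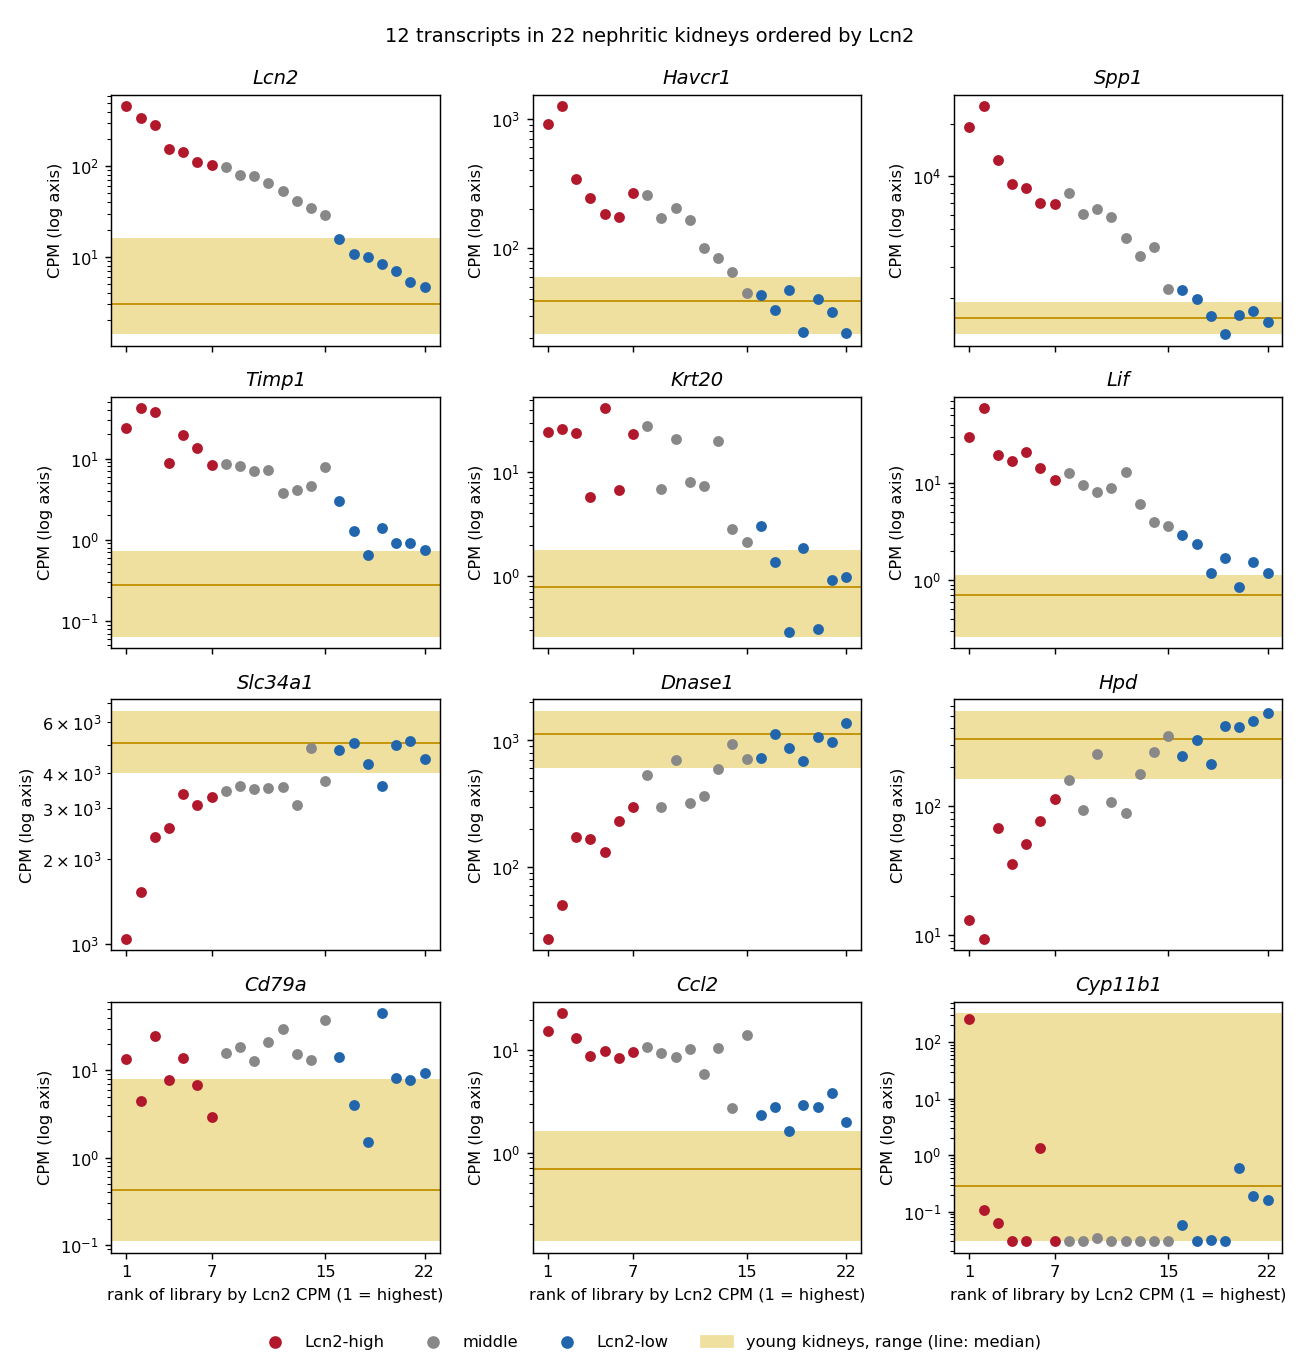
CPM (log axes; values under 0.03 drawn at 0.03) of 12 transcripts in the 22 nephritic kidneys, ranked by Lcn2 from 1 (highest) to 22, with each point 1 library, red for Lcn2-high, grey for middle and blue for Lcn2-low kidneys, and the band and line giving the range and median of 24 young kidneys. Havcr1, Spp1 and Timp1 decline along the ranking and Slc34a1, Dnase1 and Hpd climb, Cd79a shows no such order, and Cyp11b1 is at 261 CPM in the first library.

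The genes that ran most closely with Lcn2 over all 22 nephritic kidneys were named by Spearman's rho, as a description. Over 14280 genes with a mean of at least 1 CPM, Spp1 had the highest rho, 0.98, followed by Pea15a at 0.98, Akr1b8 and Anxa5 at 0.97, Lif at 0.97, Mdga1 at 0.97, Pros1 at 0.97 and Tmem176b, Armcx1 and Sptlc2 at 0.96. The lowest were Ivd at -0.95, Shmt2, Aldh2 and Afmid at -0.94 and Dnase1 at -0.93. Without RX12LU these values moved by little, with Spp1 at 0.98 and Ivd at -0.95. Mdga1, a cell surface protein with a MAM domain, varied little within each class, with 3.38, 3.69 and 5.23 CPM in the Lcn2-high and 0.782, 0.805 and 1.05 CPM in the Lcn2-low kidneys. Its log2 difference was 2.14 ± 0.13 (SE; edgeR adjusted p = 3.56e-06). Havcr1 gave nearly the same order as Lcn2, with a rho of 0.96 and with 5 of the 7 highest and 6 of the 7 lowest libraries in common.

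Lcn2 itself is induced by NF-kappaB together with IκBζ (Nfkbiz), by C/EBP factors and by STAT3 downstream of IL-6 family cytokines, and its product is taken up through Slc22a17 and megalin (Lrp2). Of 27 tested genes of this circuit, 21 were higher and 2 lower, with a median log2 difference of 0.61. Among the cytokine members, Lif, an IL-6 family ligand, had 10.8, 19.4 and 58.7 CPM in the Lcn2-high kidneys and 0.845, 1.53 and 2.90 CPM in the Lcn2-low kidneys. The log2 difference of Lif was 3.66 ± 0.40 (SE; edgeR adjusted p = 0.000152), and the classes did not overlap. Socs3, a feedback inhibitor of STAT3 signalling, was 2.62 ± 0.29 higher on the log2 scale, from 5.22, 8.35 and 21.1 CPM to 37.6, 55.3 and 115 CPM. Osmr, the receptor subunit for oncostatin M, was higher by 1.73 ± 0.19 on the log2 scale. Among the other members, the log2 differences were 1.30 for Nfkbiz, 1.39 for Relb, 0.96 for Stat3 and 0.55 for Cebpb, and all 4 passed. Il1b overlapped between classes and did not pass, with a log2 difference of 0.82 (edgeR adjusted p = 0.112), and Csf3 was too low to be tested.

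Both uptake receptors had lower values, and both calls were lost with the title start as a block. Lrp2, the large endocytic receptor of proximal tubule cells, had 727, 1479 and 2330 CPM in the Lcn2-high and 1434, 2132 and 2762 CPM in the Lcn2-low kidneys. Its log2 difference was -0.93 ± 0.23 (SE; edgeR adjusted p = 0.00665), although the classes overlapped. Slc22a17 differed by -0.33 ± 0.10 on the log2 scale (SE; edgeR adjusted p = 0.0196), and that call was lost in 1 of 14 fits that each left out 1 library.

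Transcripts of iron handling, the cargo of Lcn2, went in both directions. Of 15 tested genes 2 were higher and 7 lower, the latter count being 3 with the title start as a block. The higher ones were Hmox1, which degrades heme, with a log2 difference of 1.47 ± 0.32 (SE), and the iron exporter Slc40a1 with 0.49 ± 0.11 (SE). Tfrc, the transferrin receptor, was at 41.2, 51.7 and 60.6 CPM in the Lcn2-high and at 74.4, 91.9 and 174 CPM in the Lcn2-low kidneys, with no overlap and a log2 difference of -1.11 ± 0.18 (SE; edgeR adjusted p = 0.000732). The ferritin subunits Fth1 and Ftl1 had log2 differences of -0.19 and -0.02 and did not pass.

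Lif and Socs3 also show motif letters of signalling factors in the 250 bases before their RefSeq start site on GRCm38.p6. They are printed to show what was searched, with the matching letters in capitals: an AP-1 motif, TGANTCA, before Lif (chr11:4257318-4257567, plus strand), and a STAT motif, TTCNNNGAA, before Socs3 (chr11:117969367-117969616, minus strand).
Lif: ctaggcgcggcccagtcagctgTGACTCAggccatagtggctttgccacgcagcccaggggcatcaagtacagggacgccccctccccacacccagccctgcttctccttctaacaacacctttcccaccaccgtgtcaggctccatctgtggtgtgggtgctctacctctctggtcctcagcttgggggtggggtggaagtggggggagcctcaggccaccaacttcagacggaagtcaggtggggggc
Socs3: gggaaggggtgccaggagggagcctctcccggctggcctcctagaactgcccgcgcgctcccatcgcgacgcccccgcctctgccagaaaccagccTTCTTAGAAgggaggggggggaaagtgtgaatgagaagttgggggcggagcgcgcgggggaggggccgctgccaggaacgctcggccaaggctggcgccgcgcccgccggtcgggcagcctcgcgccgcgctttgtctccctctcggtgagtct
The AP-1 letters were found, on either strand, in 6.38% of the promoters of genes called higher, 4.56% of those called lower and 4.98% of all tested promoters. For the STAT letters these shares were 7.28%, 5.46% and 6.18%, and for a kappaB motif they were 1.66%, 1.18% and 1.24%. Over all RefSeq promoters of this length they were 6.75% for AP-1, 7.02% for STAT and 1.21% for kappaB. The differences between these shares were not tested, and a match is a description of letters and no sign of binding.

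Transcripts of the proximal tubule, the segment that reclaims most filtered solute, were lower in most cases. Of 41 tested markers 28 were lower and 1 higher in Lcn2-high kidneys, with a median log2 difference of -0.72 and a background of 17.8% of all tested genes called lower. The lower count was 25 without RX10LU, with a median of -0.60, and 12 with the title start as a block. Hnf4a (chr2:163506811-163572907, GRCm38), the transcription factor that maintains proximal tubule identity, had 489, 627 and 676 CPM in the Lcn2-high and 699, 815 and 956 CPM in the Lcn2-low kidneys. The classes did not overlap, though the difference was small, at -0.72 ± 0.12 on the log2 scale (SE; edgeR adjusted p = 0.000923). Cyp2e1, an oxidizing enzyme of the cytochrome P450 family, was lower by 1.30 ± 0.16 on the log2 scale (SE; edgeR adjusted p = 0.000219).

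The sum of the 42 listed proximal tubule markers was 14663 CPM in RX10LU, 22492 in RX12RU and 29288 in RX7LL, and between 38451 and 46070 CPM in the other 4 Lcn2-high kidneys, where the Lcn2-low kidneys ran from 41739 to 51562 CPM. The lowest sums were thus in the 3 kidneys with the most Lcn2. Of these, RX10LU carried adrenal transcripts, whose effect on its other CPM values was not tested. Slc34a1, the main phosphate transporter and chosen here after its values were seen, traced the same course, with 1044, 1530 and 2383 CPM in these 3 kidneys, 2551 to 3362 in the other 4 and 3598 to 5160 CPM in the Lcn2-low kidneys. The exception in the list was Slc13a1, a sulfate transporter, which was higher in every Lcn2-high library (556 to 925 CPM) than in any Lcn2-low library (271 to 424 CPM), with a log2 difference of 0.82 ± 0.14 (SE; edgeR adjusted p = 0.00103).

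Dnase1 and Hpd were among the 10 genes with the largest decreases. Dnase1, a secreted nuclease that degrades extracellular DNA, fell by 2.96 ± 0.47 on the log2 scale (SE; edgeR adjusted p = 0.000706). It stood at 26.8 CPM in RX10LU and 49.6 in RX12RU, at 132 to 298 CPM in the other 5 Lcn2-high kidneys and at 687 to 1374 CPM in the Lcn2-low kidneys. Hpd, an enzyme of tyrosine breakdown, had 9.35, 51.1 and 114 CPM against 213, 410 and 531 CPM, a log2 difference of -2.98 ± 0.54 (SE; edgeR adjusted p = 0.00135). For both genes the classes were fully apart. The others among the 10 genes with the most negative differences were Kcns1, Pvalb, Bhmt, Cyp2d12, Lep, Grin3a, Cyp2a5 and Dpys, with log2 differences from -3.09 for Kcns1 to -2.03 for Dpys. The call on Cyp2d12 was lost with the title start as a block. Bhmt and Dpys encode enzymes of betaine and pyrimidine breakdown, and Lep encodes the fat cell hormone leptin. Of the 12 adipocyte markers Lep was the only one that passed, and their sum was 138 to 1128 CPM in the Lcn2-high and 132 to 1149 CPM in the Lcn2-low kidneys.

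Further along the nephron the picture depended on the segment. Of 18 tested markers of the loop of Henle and distal convoluted tubule 12 were lower and 1 higher, with a median of -0.71 on the log2 scale. Pvalb, a calcium-binding protein of the distal convoluted tubule, had 9.08, 34.05 and 89.1 CPM against 108, 250 and 321 CPM (log2 difference -2.88 ± 0.50 SE; edgeR adjusted p = 0.00109). Calb1, another calcium-binding protein, differed by -1.66 ± 0.25 and the magnesium channel Trpm6 by -1.60 ± 0.20, each with no overlap between classes. Klhl3, a regulator of the sodium chloride transporter, differed by -1.18 ± 0.14 on the log2 scale. Egf, chosen here after its values were seen, differed by -1.89 ± 0.43. By contrast Umod, the main product of the thick ascending limb and likewise chosen after its values were seen, had a log2 difference of -0.19 (edgeR adjusted p = 0.608), and the 1 higher member was the claudin Cldn19 with 0.35.

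In the collecting duct 7 of 18 markers were lower and 0 higher by edgeR, 0 at an unadjusted p below 0.05 in the upward direction, and 0 by DESeq2 and limma, with a median log2 difference of -0.20. The lower ones included Slc4a1, the bicarbonate exchanger of intercalated cells, with -1.40 ± 0.23, and the water channels Aqp6 with -0.66 and Aqp3 with -0.49. Podocyte markers were called about as often as all tested genes (18.1% higher and 17.8% lower), with 4 higher (among them Nes 0.84, Kirrel 0.72 and Cd2ap 0.58 on the log2 scale), 3 lower and 11 not passing of 18. The slit diaphragm gene Nphs1 had a log2 difference of -0.24 and did not pass. Of 18 endothelial markers only Selp passed, with 1.56 ± 0.52, and the median was 0.08. The Selp call held in 7 of 14 fits that each left out 1 library and was lost with the title start as a block.

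Genes of energy metabolism were lower in Lcn2-high kidneys. For fatty acid oxidation, the main fuel route of proximal tubule cells, 30 of 42 tested genes were lower and 0 higher, with a median log2 difference of -0.63. Ppara, the nuclear receptor that controls this programme, had 42.0, 75.8 and 98.5 CPM in the Lcn2-high and 94.4, 112 and 190 CPM in the Lcn2-low kidneys. It differed by -1.01 ± 0.17 on the log2 scale (SE; edgeR adjusted p = 0.000892) with a small overlap. The coactivator Ppargc1a differed by -0.63 ± 0.10 and the beta-oxidation enzyme Echs1 by -0.83 ± 0.13. Of 103 tested subunits and assembly genes of the respiratory chain 85 were lower and 0 higher, with a smaller median of -0.43. Among these nuclear genes Sdha, a subunit of complex II, had a log2 difference of -0.78 ± 0.12. The count for the respiratory chain was 54 without RX10LU and RX12RU and 37 with the title start as a block, where fatty acid oxidation had 17. Of 22 genes of the oxidative stress response 10 were lower, among them Gsta3 (-0.93 ± 0.13) and catalase (Cat, -0.93 ± 0.18), and 4 were higher, among them the metallothionein Mt2 (1.41 ± 0.21). The count of 10 became 6 without RX10LU, RX12RU, RX11LU, RX7LL, RX11LL, RX12LL or RX90, each left out alone, and 5 with the title start as a block.

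A motif of the proximal tubule factor HNF1, seen in capitals in the sequences printed here, was searched on both strands in the same 250 base windows. It was found in 24 of 2874 promoters of lower genes (0.835%), in 1 of 2775 promoters of higher genes (0.0360%, Tnfrsf9), in 47 of 15530 tested promoters (0.303%) and in 0.387% of all promoters. The mean GC content was alike, 58.9% for lower and 59.0% for higher genes. Promoters were matched for 2253 of the 2853 lower and 2189 of the 2906 higher genes. The lower genes with the smallest p among those with the letters are shown to make the match visible: Rassf6 (chr5:90640528-90640777, minus strand), Akr1c13 (chr13:4190937-4191186, plus strand) and Afm (chr5:90518699-90518948, plus strand).
Rassf6: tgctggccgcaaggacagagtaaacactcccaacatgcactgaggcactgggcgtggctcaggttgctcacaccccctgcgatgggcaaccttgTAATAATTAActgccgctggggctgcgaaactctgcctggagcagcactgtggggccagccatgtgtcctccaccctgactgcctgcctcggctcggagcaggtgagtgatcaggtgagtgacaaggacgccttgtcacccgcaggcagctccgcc
Akr1c13: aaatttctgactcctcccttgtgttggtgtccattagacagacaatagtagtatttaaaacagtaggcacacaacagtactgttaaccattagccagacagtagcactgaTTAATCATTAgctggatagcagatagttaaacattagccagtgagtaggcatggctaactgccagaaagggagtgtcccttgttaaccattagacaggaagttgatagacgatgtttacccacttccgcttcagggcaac
Afm: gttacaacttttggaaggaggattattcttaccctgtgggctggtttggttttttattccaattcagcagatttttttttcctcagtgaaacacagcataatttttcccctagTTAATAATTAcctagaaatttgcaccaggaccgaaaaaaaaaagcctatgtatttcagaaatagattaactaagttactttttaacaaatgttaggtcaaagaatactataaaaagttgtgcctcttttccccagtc
Rassf6, a Ras-association domain protein, had 19.7, 21.2 and 23.2 CPM in the Lcn2-high and 25.2, 27.1 and 31.6 CPM in the Lcn2-low kidneys, a log2 difference of -0.51 ± 0.07 (SE; edgeR adjusted p = 0.000416). Akr1c13, an aldo-keto reductase, had 12.4, 15.96 and 17.01 CPM against 18.9, 24.2 and 31.9 CPM, a log2 difference of -0.86 ± 0.12. In both genes the classes did not overlap. Afm, which encodes afamin, differed by -1.05 ± 0.19 with a small overlap, and the other lower genes with these letters included Cubn, Acsm2, Slc7a9 and Pcbd1. The letters HNF4A is known for, CAAAGTCCA, were found in 0.418% of lower, 0.577% of higher and 0.419% of tested promoters.

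Extracellular matrix genes were higher in Lcn2-high kidneys. Of 43 tested matrix and fibroblast genes 36 were higher and 0 lower, with a median log2 difference of 1.30, and in 23 of them the classes did not overlap. Over all tested genes 18.1% were higher, and 6.02% were higher with no overlap. Col3a1, a fibrillar collagen, had 133, 193 and 428 CPM in the Lcn2-high and 16.5, 32.5 and 63.3 CPM in the Lcn2-low kidneys (log2 difference 2.69 ± 0.30 SE; edgeR adjusted p = 0.000152). The basement membrane collagens Col4a1 and Col4a2 differed by 1.23 ± 0.13 and 1.17 ± 0.13 on the log2 scale. Proliferation genes were higher in 29 of 30 cases with a median of 1.63, but the classes overlapped in all 30. Tpx2, a spindle protein, differed by 1.92 ± 0.27 and the mitotic cyclin Ccnb2 by 1.79 ± 0.28. Tyms was the 1 proliferation gene that did not pass, with -0.11.

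Immune lists were read by cell type. Of 27 macrophage and dendritic cell genes 21 were higher, with a median log2 difference of 1.01. Cd14, the endotoxin coreceptor, which injured tubule cells can also express, had 58.9, 86.7 and 209 CPM in the Lcn2-high and 12.1, 16.02 and 26.5 CPM in the Lcn2-low kidneys (log2 difference 2.53 ± 0.26 SE; edgeR adjusted p = 0.000133). The scavenger receptors Msr1 and Mrc1 differed by 1.90 ± 0.22 and 1.46 ± 0.21, also with no overlap. The count of 21 became 11 without RX10LU and RX12RU, and 5 with classes made on Havcr1. Complement genes were higher in 17 of 23 cases, among them C4b (1.61 ± 0.18) and C7 (1.86 ± 0.26), and chemokines and their receptors in 24 of 35. Ccl2, which attracts monocytes, had 8.47, 9.92 and 23.2 CPM against 1.61, 2.79 and 3.82 CPM, a log2 difference of 2.08 ± 0.20 (SE; edgeR adjusted p = 0.000102). Among Il1b, Ccl2, Ccl5, Cd14, Cxcl10, Tnf, Vcam1 and Timp1, a set of inflammation and injury genes, 7 were higher, Il1b being the exception.

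Of 20 B cell and plasma cell genes 3 were higher, a share near the 18.1% of all tested genes, with a median log2 difference of 0.36, and these were Jchain, Irf4 and Sdc1. Of these Sdc1 is also made by epithelial cells. Cd79a, a chain of the B cell receptor, had 2.94, 7.65 and 24.7 CPM in the Lcn2-high and 1.51, 8.05 and 45.1 CPM in the Lcn2-low kidneys, with a log2 difference of 0.26 ± 0.38 (SE; edgeR adjusted p = 0.633). The highest value of all 22 belonged to an Lcn2-low kidney, RX8LL, and the lowest to another one, RX7LU. T cell genes were higher in 6 of 21 cases with a median of 0.74, and this count ranged from 0, with no time term, with 11 kidneys against 11, with a slope over all 22 or with classes made on Havcr1, to 11 by limma. Interferon-stimulated genes were higher in 14 of 30 and MHC class II genes in 8 of 11, with medians of 0.49 and 1.02. The interferon count was 22 without RX8LL, the Lcn2-low kidney that also had the most Cd79a.

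Neutrophils also contain LCN2 protein, so their markers were read beside the ranking. Of 18 neutrophil markers, 8 could be tested, Ly6g and Mpo being among those too low, and 4 of the 8 were higher: Il1r2, Fpr1, Fpr2 and Hdc. Without RX10LU, or with the title start as a block, 2 passed. S100a8, a defining neutrophil gene chosen after its values were seen, had 0.0593, 0.259 and 0.437 CPM in the Lcn2-high and 0.0907, 0.282 and 0.407 CPM in the Lcn2-low kidneys (log2 difference -0.04; edgeR adjusted p = 0.943). The 18 markers summed to 31.6 to 58.9 CPM in the Lcn2-high and 23.5 to 38.9 CPM in the Lcn2-low kidneys. Much of this sum was the single gene Hdc, at 16.9 to 42.7 CPM and 12.1 to 19.4 CPM, so the sum is no measure of neutrophil number. The acute-phase list had 7 of 16 genes higher, among them Cp, Fga and Fgg with log2 differences of 1.70, 1.55 and 1.68. The haemoglobin genes were at 0 in all 14 libraries. The part that these cell types have in the other differences was not tested.

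**Figure D2:**
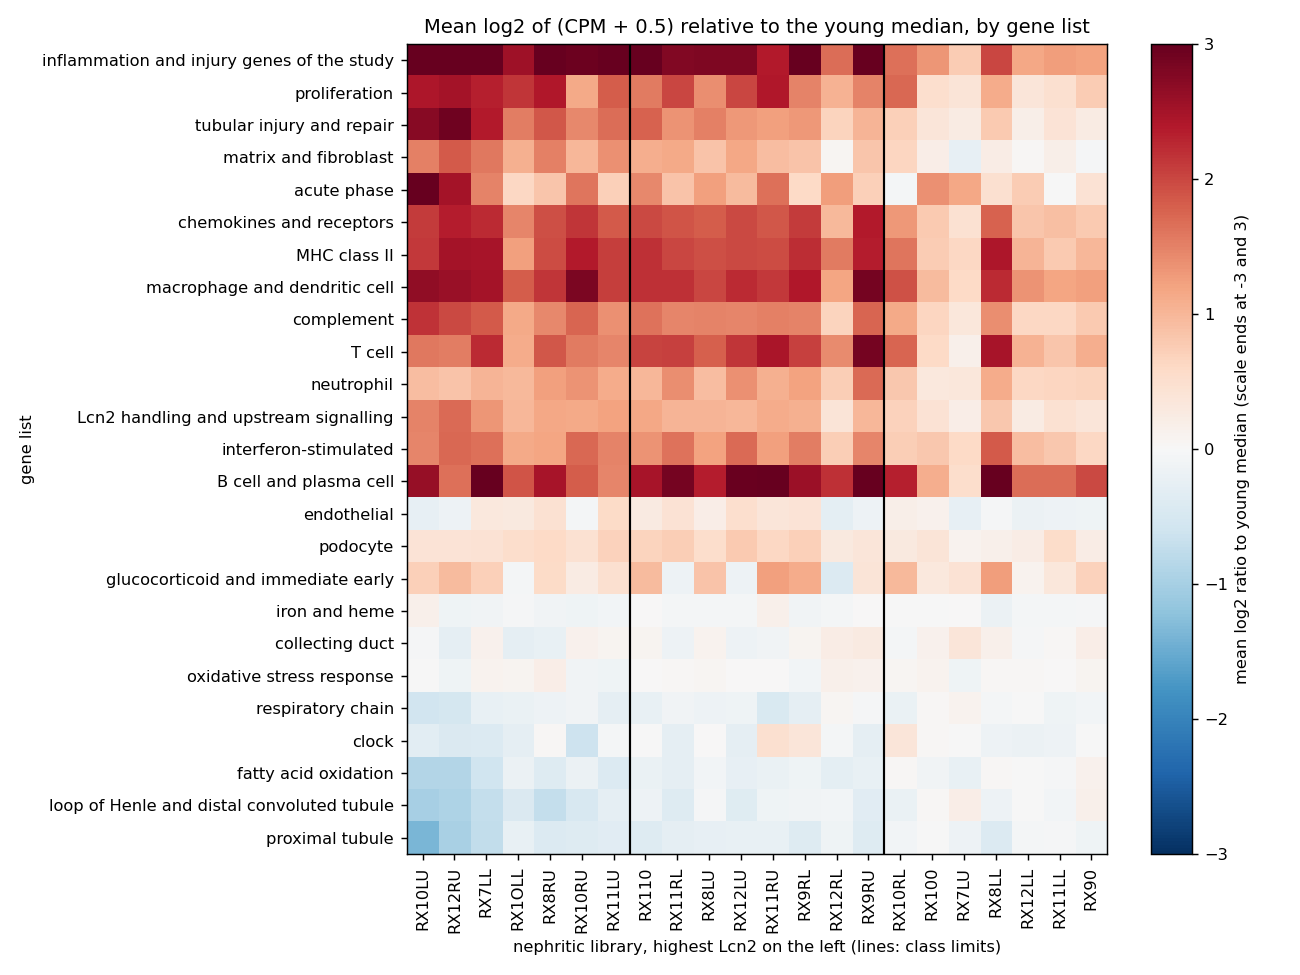
Rows are gene lists and columns the 22 nephritic kidneys from the highest Lcn2 (left) to the lowest (right), with black lines at the class limits; colour is the mean log2 ratio of CPM + 0.5 to the young median over the tested genes with a young median above 0.1 CPM. The injury and matrix lists fade from left to right, the 3 kidneys at the left are bluest for proximal tubule and fatty acid oxidation, and the B cell list is dark in kidneys of every class, RX8LL among them.

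Clock gene levels depend on the hour of collection. Of 19 genes 8 were lower and 0 higher in Lcn2-high kidneys by edgeR with a 24 h wave in the model, where 17.8% of all tested genes were lower. None of the 19 was higher at an unadjusted p below 0.05 or by DESeq2 and limma (0 in each). The 3 with the smallest p were Ciart (-1.56 ± 0.28 on the log2 scale), Hlf (-1.06 ± 0.23) and Per1 (-0.91 ± 0.20), all with overlapping classes. Arntl, which encodes BMAL1 and was chosen after its values were seen, had a log2 difference of 0.47 (edgeR adjusted p = 0.341). The count was 1 with classes made on Havcr1 and 5 with 11 kidneys against 11, so it depended on how the classes were drawn. Among glucocorticoid-induced and immediate early genes 5 were higher and 6 lower of 21, where 18.1% and 17.8% of all tested genes were. The log2 differences ran from Fosl1 at 4.77 ± 0.67, near 0 CPM in the Lcn2-low kidneys, to the phosphatase Dusp1 at -1.46 ± 0.16.

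The 10 genes with the largest positive differences mostly reflected 1 library. All but Arhgap36 (Cyp11b2, Cyp11b1, Cyp21a1, Nr5a1, Pnmt, Chga, Akr1cl, Dbh and Chgb) belong to adrenal cortex or medulla or were high in RX10LU alone, for example Cyp11b1, which makes corticosterone, at 261 CPM there and at most 1.34 CPM in the other 13 libraries. Applied without RX10LU, a choice made after seeing the data, the same rule named Arhgap36, Il1f6, Sult4a1, Cxcl17, Sprr2g, Krt20, Timp1, Lif, Ugt2b37 and Tmem145. In all 10 of these the classes did not overlap with RX10LU included. For Arhgap36 this rested on values near 0, with 0.130 CPM in the Lcn2-high kidney RX8RU against 0.125 CPM in the Lcn2-low kidney RX8LL. Il1f6, an epithelial cytokine of the IL-1 family, had 2.66, 4.95 and 17.3 CPM in the Lcn2-high and 0.0313, 0.116 and 0.393 CPM in the Lcn2-low kidneys (log2 difference 5.51 ± 0.54 SE; edgeR adjusted p = 0.000108).

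The Lcn2-low kidneys were also compared with young kidneys. The nephritic mice were all older and had RX titles, whereas the young kidneys used all had ZT titles. Disease, age and title start therefore cannot be told apart in these comparisons. In a joint fit with 24 young kidneys, 1405 of 17056 genes were higher (8.24%) and 274 lower (1.61%) in Lcn2-low kidneys, 9.84% in all. In Lcn2-high kidneys 5179 were higher (30.4%) and 4751 lower (27.9%), 58.2% in all. Both contrasts share the young libraries, so their values are only set side by side. Of 20 B cell and plasma cell genes 18 were higher in Lcn2-low than in young kidneys, with a median log2 difference of 2.35, as were 21 of 22 T cell, 23 of 27 macrophage, 26 of 30 interferon-stimulated, 11 of 11 MHC class II and 28 of 30 proliferation genes. The corresponding counts in Lcn2-high kidneys were 19, 22, 25, 28, 11 and 29. For the B cell and plasma cell list in Lcn2-low kidneys, DESeq2 called 11 of 20 higher and limma 17. The Lcn2-low kidneys were uneven in this list, with sums from 59.7 CPM in RX7LU to 660 CPM in RX8LL. In young kidneys the sums ran from 30.8 to 93.3 CPM. Cd79a was at 0.426 CPM (median) in young kidneys, with a log2 difference to young of 4.06 ± 0.54 in Lcn2-low and 3.98 ± 0.54 in Lcn2-high kidneys. Among the genes with the largest positive differences in Lcn2-low kidneys were Glycam1, Pou2af1, Ms4a1 and Cd79a, which mark lymphoid tissue vessels and B cells, from 4.06 to 6.55 on the log2 scale. None of these 4 passed between Lcn2-high and Lcn2-low kidneys. The 5 with the most negative differences (Th, Cyp11b1, Cyp21a1, Akr1cl and Nr5a1) were adrenal-related genes, whose highest young values ranged from 24.3 to 651 CPM against young medians of at most 0.543 CPM.

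The tubular lists gave few or no calls in Lcn2-low against young kidneys. Of 41 proximal tubule genes 0 passed in either direction by edgeR, with a median log2 difference of -0.13 (5 lower and 0 higher at an unadjusted p below 0.05, 3 lower by DESeq2, 0 by limma), whereas 36 were lower in Lcn2-high kidneys. Of 42 fatty acid oxidation genes 0 passed, with a median of -0.03 (1 higher and 5 lower unadjusted, 1 lower by DESeq2 and 1 by limma), against 39 lower in Lcn2-high kidneys. Of 103 respiratory chain genes 0 passed, with a median of -0.08 (7 lower unadjusted, 0 by DESeq2 and limma), against 96 lower. The loop and distal list had 0 of 18 (1 lower unadjusted, 0 by DESeq2 and limma), against 13 lower. A p that misses the threshold does not show equal levels, and the Lcn2-low proximal tubule sum of 41739 to 51562 CPM fell below the young range of 48472 to 57975 CPM in RX7LU, RX8LL and RX90 and inside it in the other 4 kidneys.

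Fewer injury and matrix genes passed in Lcn2-low than in Lcn2-high kidneys against young. In Lcn2-low kidneys 10 of 30 injury genes and 10 of 43 matrix genes were higher than in young kidneys, with medians of 0.22 and 0.07, and in Lcn2-high kidneys 28 and 37 were. Havcr1 had a log2 difference to young of -0.33 ± 0.24 in Lcn2-low (edgeR adjusted p = 0.474) and of 3.22 ± 0.22 in Lcn2-high kidneys. Spp1 was at 0.05 ± 0.13 and 2.73 ± 0.13, and Col3a1 at 0.10 ± 0.19 and 2.66 ± 0.17. Timp1 was already higher in the Lcn2-low kidneys, by 1.90 ± 0.32 (edgeR adjusted p = 2.83e-05), and by 5.87 ± 0.29 in the Lcn2-high kidneys. Ccl2 and Socs3 were likewise higher in Lcn2-low than in young kidneys, by 1.76 and 1.17 on the log2 scale.

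**Figure D3:**
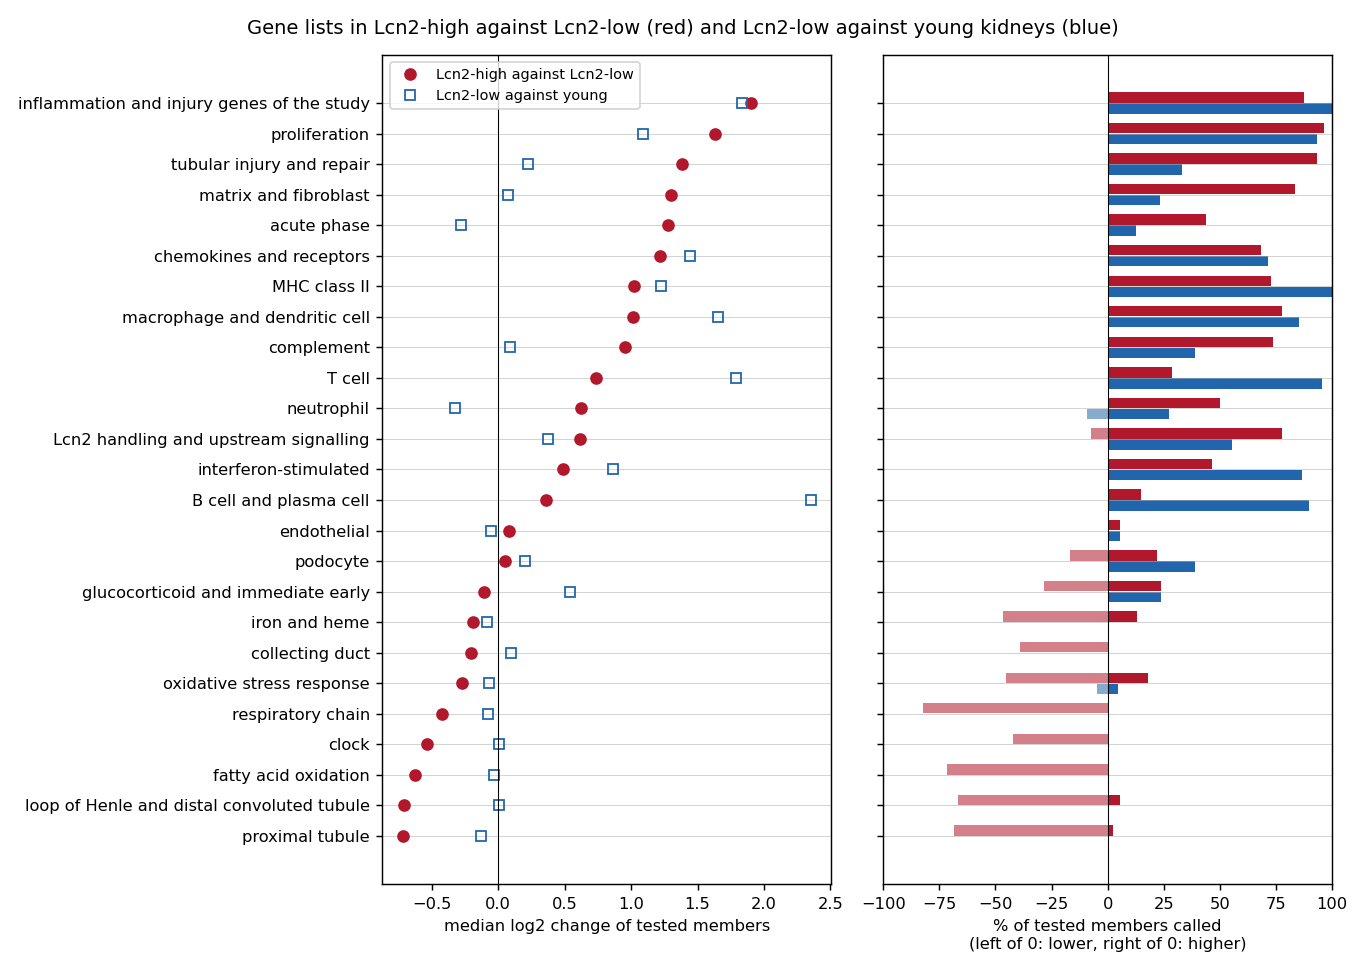
Left, the median log2 difference of the tested genes of each list in Lcn2-high against Lcn2-low kidneys (red circles) and in Lcn2-low against young kidneys (blue squares); right, the percentage of tested genes called higher (right of 0) or lower (left of 0, paler bars). Proximal tubule, fatty acid oxidation and respiratory chain have red bars only, and the B cell and T cell lists have longer blue than red bars.

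Kidneys that the classes did not use gave the same directions. In the 5 other nephritic kidneys Lcn2 was 9.25, 127, 364, 463 and 782 CPM, and each gene's slope on log2 Lcn2 was fitted without a time term. The kidneys titled CRS were all labelled ZT0, and those titled HIL, with 364 and 463 CPM, were both labelled ZT12. Title start and collection time cannot be told apart among them, and the slopes take up neither. The slope was positive in 96.8% of the 2807 genes called higher between classes that could be fitted there, where 53.3% of all genes had a positive slope. It was negative in 97.7% of the 2785 called lower, where 46.7% of all genes had a negative slope. Havcr1 was 23.1 CPM in the kidney with the least Lcn2, 197 in the next, and 564, 583 and 880 CPM in the other 3, a slope of 0.80 ± 0.04 log2 units per doubling of Lcn2 (edgeR adjusted p = 0.0257). Hpd went from 460 CPM to 93.3 and then to 2.14, 4.48 and 11.2 CPM. With 5 libraries, only 12 of 14903 genes (0.0805%) had a slope that passed, all positive, and 0 had a negative one (2885 genes in either direction at an unadjusted p below 0.05; DESeq2 called 683 positive and 881 negative, limma 22 and 1). The 12 genes were Adamts1, Adgra1, Anxa3, Cd14, Dpysl3, Edn1, Gdf15, Havcr1, Krt20, Lif, Pmaip1 and Serpina10, named after their values were seen. Leaving out 1 of the 5 libraries left 0 to 9 positive genes, and 0 without CRS6LU, CRS6LL, CRS60 or HIL5LL.

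In the 8 remission kidneys Lcn2 ran from 7.01 to 65.5 CPM, with 57.5 and 65.5 CPM in s12 and s14 and at most 21.5 CPM in the others. The slope on Lcn2 was positive in 87.4% of the 2610 genes called higher between the nephritic classes (49.6% of all genes) and negative in 87.5% of the 2809 called lower (50.4% of all genes). Here 793 of 14450 genes had a positive slope that passed (5.49%) and 136 a negative one (0.941%), 6.43% in all. These counts rested on single kidneys, with 0 and 0 without s10, 29 and 3 without s14, 316 and 11 without s1, 401 and 21 without s8, and 1411 and 670 without s9. The negative count was 41 without s3. The closest pair, s3 and s8, both labelled ZT0, differed by a mean chi-square of 8.67 per gene against a median of 54.9 over all 28 pairs. The next closest were s12 and s14, at 19.75, both labelled ZT12. These are the 2 kidneys with the most Lcn2, so the upper end of every slope rests on 2 libraries that are unusually alike. The B cell list had 17 of 19 genes with a positive slope that passed, and the T cell list 17 of 21. Cd79a had a slope of 1.46 ± 0.26 (edgeR adjusted p = 0.0126), from 2.33 CPM in s10 to 36.5 in s12 and 61.0 in s14. Havcr1 in remission was 71.0 to 120 CPM with a slope of 0.13 ± 0.07 that did not pass (edgeR adjusted p = 0.352), and these values lay inside the 21.5 to 121 CPM of all 30 young kidneys, of which the 24 titled ZT reached 60.1 CPM. A test of the difference between the remission slope and that of the 22 nephritic kidneys called 0 of 16826 genes by edgeR (2744 at an unadjusted p below 0.05), 370 by DESeq2 and 88 by limma. The p for this difference was 0.0153 for Cd79a and 0.00158 for Havcr1 before adjustment, and 0.199 and 0.112 after it.

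**Figure D4:**
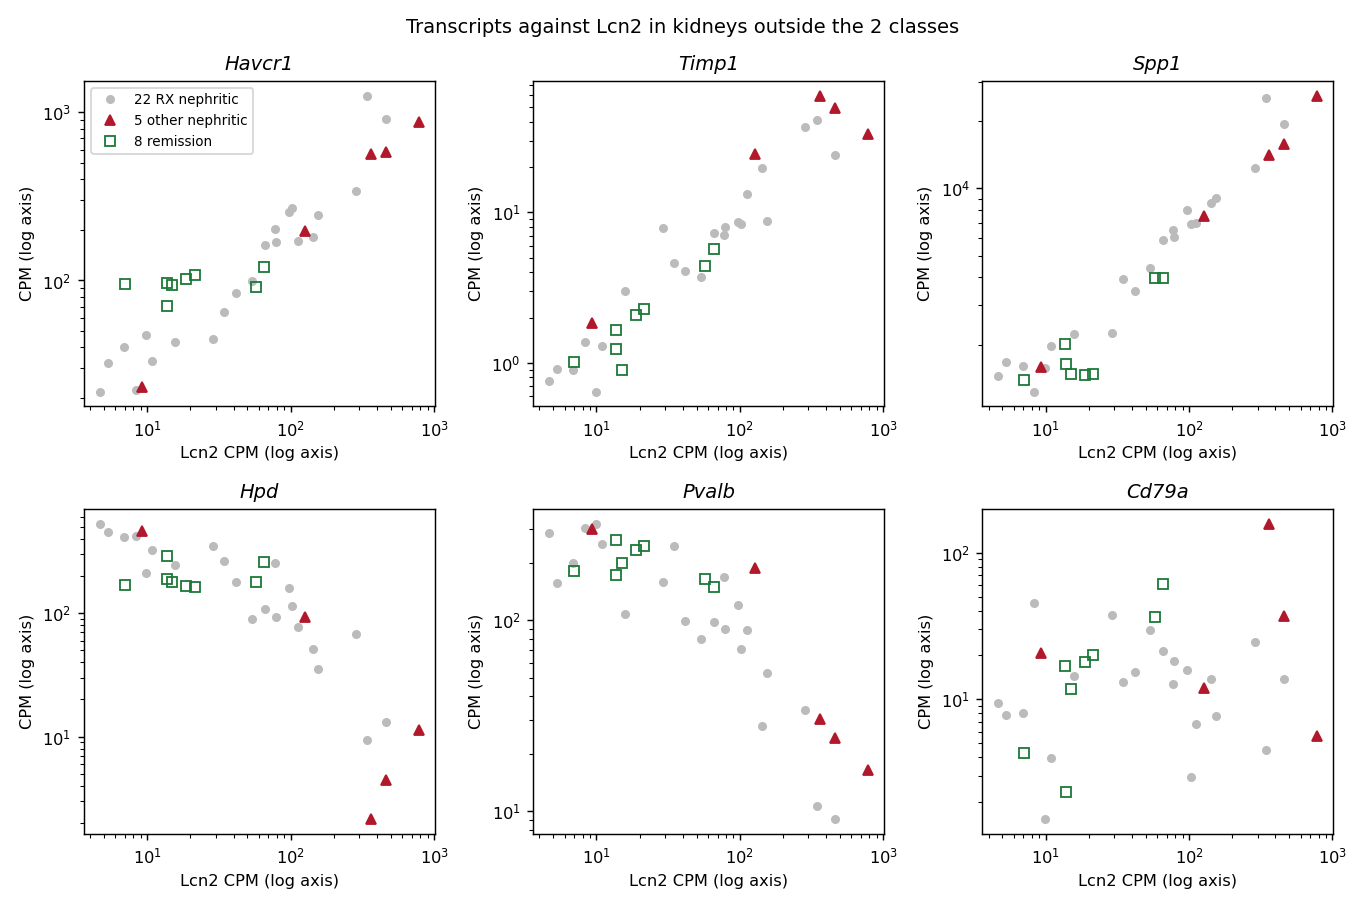
CPM of 6 transcripts against CPM of Lcn2 (both log axes), with each point 1 library: grey circles for the 22 nephritic kidneys of the ranking, red triangles for the 5 other nephritic kidneys and green squares for the 8 remission kidneys. The triangles run in the same direction as the grey points for Havcr1, Timp1, Spp1, Hpd and Pvalb. For Pvalb, CRS6LU (188 CPM) lies above the grey points of like Lcn2. For Hpd, HIL5RU (2.14 CPM) and HIL5LL (4.48 CPM) lie below every grey point. The remission kidneys sit between 71.0 and 120 CPM of Havcr1 at every Lcn2 level, and their Cd79a climbs to 61.0 CPM.

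In the 24 young kidneys, where Lcn2 varied from 1.39 to 15.999 CPM, 7 of 16266 genes followed it by edgeR (0.043%), 2344 at an unadjusted p below 0.05, 125 by DESeq2 and 0 by limma. Of the 7 genes, Prm1, Tuba3b, Ldhc, Mael and Adam5 are testis genes, although the mice are described as female, and their counts were highest in ZT8RU and ZT4LU. The other 2 were Ifitm3 and Parp6. The direction still matched in 72.6% of 2810 genes called higher between the nephritic classes and 74.7% of 2852 called lower, where 51.0% and 49.0% of all genes had that sign.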

How the data were processed

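Whole-kidney RNA was sequenced from poly-A selected libraries, 1 per mouse title. The authors deposited raw read counts per gene symbol, 1 column per library, which were used as deposited. The study's methods describe a Burrows-Wheeler alignment of unique reads counted per transcript, whereas the submitters' processing notes name HISAT and mm10. Of 24538 symbols 15 had empty cells and were left out. No column belonged to a sample of another series.

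The classes and gene lists were chosen with earlier results of these data known. Classes held 7 libraries each, ranked on Lcn2 CPM, and Lcn2 was left out of every test. Genes with at least 100 counts summed over the libraries of a fit were tested with edgeR 4.0.16 (R 4.3.3) by quasi-likelihood after TMM scaling, with a sine and cosine of a 24 h period between classes and Benjamini-Hochberg adjustment at 0.05 over all genes. Fits against young kidneys and slopes on log2 Lcn2 used the same test. The slope over the 5 other nephritic kidneys had no time term, and that slope and the slope difference were added after seeing the data. Alternatives used limma 3.58.1, DESeq2 1.42.0, other scaling, filters, time terms, class sizes, Havcr1 as the sorting gene, a title start block (added after seeing the data), and each library left out. Nothing says more of replicates than separate titles, so p-values measure the spread between these libraries. Over the 22 kidneys totals were 29372601 to 48075977 counts.

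Named genes were the 10 largest changes each way with a mean of at least 1 CPM, the closest rank correlates of Lcn2, the 3 smallest p in each list, fixed inflammation genes, the Lcn2 receptors, and the 5 largest changes each way against young kidneys. Other genes were chosen after their values were seen. Some genes that this rule named are not reported here. On simulated counts the test between classes recovered 83 of 100 genes changed by 1 on the log2 scale and 97 of 100 changed by 2, with 7 false calls among 16007 genes. The simulation changed 200 genes, drew each gene independently and held no time effect. In the real comparison 5759 genes were called, so these rates need not hold there. Exact permutation tests used scipy 1.17.1. Promoters came from RefSeq on GRCm38.p6.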

Additional observations from a re-analysis of the deposited data

Results flagged for a closer look

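Within each class of 7 libraries, 252 sets of values of a named gene were checked for 1 library far from the rest on the log2(CPM + 0.1) scale, and 21 were found where chance gives about 1 in 20. Each value here is the CPM of the library that stood apart. In the Lcn2-high class, RX10LU was highest for the adrenal-related genes Akr1cl (34.16), Chga (127), Chgb (86.39), Cyp11b1 (260.5), Cyp11b2 (36.1), Cyp21a1 (513), Dbh (14.1), Nr5a1 (35.53), Pnmt (39.4) and Th (24.87), and for Ces2d-ps (2.118). RX12RU was highest for the chemokine Cxcl10 (47.15), and RX10RU was lowest for the cyclin Ccnb2 (4.31). In the Lcn2-low class, RX10RL was highest for the complement gene C7 (6.851) and lowest for the bicarbonate exchanger Slc4a1 (75.36). RX90 was lowest for Hdc (12.12) and highest for Tfrc (174.2). RX8LL was highest for Irf9 (46.72), RX100 for Ppara (190.2), RX12LL for Pnmt (0.1971) and RX11LL for Th (0.03129).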

How the results depend on the processing

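Most alternatives changed 1 choice. Adding 6 young libraries to the young slope also added a title family term. Adding the 5 other nephritic kidneys to the remission slope also added a diagnosis term. The slope over all 22 kidneys also replaced the 24 h wave with time points as a factor. Classes made on Havcr1 also left Havcr1 out of the test. For 112 named genes between the classes, 2844 of 3007 alternative values kept their direction and their side of the threshold, 152 lost the call, 10 gained it and 1 reversed, Chgb at -0.75 with the title start as a block. For 10 genes named against young kidneys, 88 of 130 did, 42 lost the call and 0 reversed. Between the classes, higher genes numbered 1848 without RX10LU and RX12RU together and 1733 with the title start as a block, and lower genes 1754 without both, 1272 with the title start as a block and 1646 with classes made on Havcr1. Leaving out 1 library gave 2267 to 2982 higher and 2265 to 3032 lower genes. Lower genes in Lcn2-low against young kidneys numbered 518 by DESeq2 and 161 to 316 with 1 library left out, 161 without RX10RL and 162 without RX8LL. In remission, positive slopes numbered 1219 with no time term and 0 to 1411 with 1 kidney left out. Negative ones numbered 370 by DESeq2, 631 with no time term, 918 with the 5 other nephritic kidneys added and 0 to 670 with 1 kidney left out. In young kidneys, positive slopes numbered 25 with no filter, 108 by DESeq2, 0 by limma and 29 with no time term. They numbered 3 over all 30 young libraries with the title family term. Negative ones numbered 17 by DESeq2 and 4 with no time term. In the 5 other nephritic kidneys, positive slopes numbered 683 by DESeq2, 22 by limma and 0 to 9 with 1 library left out, and negative ones 3 with no filter, 881 by DESeq2, 1 by limma and 0 to 1 with 1 left out. The slope difference had 191 positive and 179 negative genes by DESeq2 and 61 and 27 by limma. With 1 remission kidney left out it had 0 to 85 positive and 0 to 165 negative genes, the highest counts being without s10, and 19 and 34 without s12. The cause of these changes was not tested.

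No paired analysis was possible because the labels give no replicate numbers shared by the classes. The block on title start is no pairing of replicates, since RX10 holds 5 libraries and RX9 only 1.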
